A study of Mus musculus with 22 samples.

Results

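Genes for the assembly of the large (60S) ribosomal subunit were measured in mouse embryonic stem cells after depletion of 1 or 2 proteins of that same subunit. The genes were taken by symbol from a list of 48 factors of 28S and 5.8S rRNA processing, 5S RNP loading, subunit assembly and nuclear export. Of these, 47 were found in both expression tables, out of 24819 genes in all. Noc2l was not analysed here.

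The 60S subunit starts in the nucleolus, where ribosomal proteins and assembly factors join the precursor of 28S and 5.8S rRNA, passes through the nucleoplasm, and leaves the nucleus through the nuclear pores with the export receptor Xpo1. GTPases, AAA ATPases and DEAD-box helicases drive the order of the steps, and the last factors are released in the cytoplasm. Rpl11 and Rpl5 enter together with 5S rRNA as the 5S RNP, a particle that also binds Mdm2, a ubiquitin ligase acting on p53, when assembly is disturbed. Rpl14 is a structural protein of the same subunit. Dux is a transcription factor that switches on genes of the 2-cell embryo. The series set depletion of Rpl14 alone beside its depletion together with Rpl11 or with Dux.

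The libraries came from E14 mouse embryonic stem cells, kept with leukemia inhibitory factor on gelatin-coated plates and harvested 3 days after siRNA transfection with DharmaFECT. The 22 libraries were of 6 kinds: siRpl14 with siNT, siRpl11 with siNT, siDux with siNT, siRpl14 with siRpl11, siRpl14 with siDux, and siNT with siNT. They are called siRpl14, siRpl11, siDux, siRpl14+siRpl11, siRpl14+siDux and siNT below; every single knockdown thus also carried siNT, whose letters the labels do not spell out. Set 1 had 8 libraries, 2 each of siRpl14, siRpl11, siRpl14+siRpl11 and siNT. Set 2 had 1 library each of siRpl14, siDux, siRpl14+siDux and siNT. Set 3, in a table of its own, had 10 libraries, 2 each of siRpl14, siDux, siRpl14+siDux and siNT, and 1 each of siRpl11 and siRpl14+siRpl11. Sets 1 and 2 share a table and were told apart by the style of their titles alone. All cells are of 1 line, and nothing in the labels says whether replicates were separate cultures.

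Expression is given as FPKM (fragments per kilobase of transcript, scaled to the mapped fragments of the library), so levels can be compared between genes. Read depth is unknown. Set 3 was less finely resolved than the others, with 50.5 to 56.2% of all genes listed at 0 per library, against 30.1 to 32.1% in sets 1 and 2. The summed level of 6 fibroblast feeder markers was at most 15.5 FPKM in any library, that of 6 primitive endoderm markers at most 9.11 FPKM, and that of 6 trophectoderm markers at most 81.2 FPKM.

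The siRNA targets were checked first. In set 1, Rpl14 stood at 60.2% and 27.1% of the siNT mean in the siRpl14 libraries (replicates 1 and 2) and at 15.6% and 35.3% in the siRpl14+siRpl11 libraries. Rpl11 stood at 34.9% and 15.2% in the siRpl11 libraries and at 13.2% and 33.4% in the siRpl14+siRpl11 libraries. The depth of knockdown thus differed within each pair of libraries, deeper in replicate 2 of the single knockdowns and in replicate 1 of the double. The set 2 library given siRpl14 retained 34.6% of Rpl14, and the one given siRpl14+siDux 35.1%. For set 3 the siRpl14 libraries had 26.8% and 24.6%, the siRpl14+siDux libraries 28.8% and 22.7%, and 17.7% was left in the siRpl14+siRpl11 library, where Rpl11 was at 23.7%. Rpl11 was at 19.2% in the siRpl11 library of set 3. Dux was at 0.0546 FPKM with siDux, 0.168 FPKM with siRpl14+siDux and 0.306 FPKM with siNT in set 2, and was listed at 0 in the siDux, siRpl14+siDux and siNT libraries of set 3, so siDux could not be checked on its target there.

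In set 1, the 47 genes lay above siNT more often than other genes after depletion of either ribosomal protein. The log2 difference was above 0 for 39 of the 47 with siRpl14 and 40 with siRpl11, beside 52.9% and 42.1% of all genes tested. Tests were made with limma on log2(FPKM + 1) across all 12129 genes with enough signal, and a gene was called at a Benjamini-Hochberg adjusted p under 0.05. With siRpl14, 14 of the 47 rose and none fell, where 18.1% of all genes were called higher and 13.4% lower. With siRpl11, 31 rose and none fell, where 16% of all genes were called higher and 28.4% lower. With siRpl14+siRpl11, 30 rose and 1, Senp3, fell, where 16.6% of all genes were called higher and 25% lower. The median log2 difference of the 47 was 0.26 with siRpl14, 0.43 with siRpl11 and 0.34 with siRpl14+siRpl11, beside 0.03, -0.11 and -0.07 over all genes tested. The summed level of 8 embryonic stem cell markers moved with the groups: it was 5111 and 4626 FPKM with siRpl14, 5667 and 6068 FPKM with siRpl11, 5009 and 5039.6 FPKM with siRpl14+siRpl11, and 7647 and 6834 FPKM with siNT. All 6 knockdown libraries were below both siNT libraries in this sum, whose largest part was Dppa5a. None of the 8 markers was at 0. Taken singly, Nanog, Esrrb, Zfp42, Klf4, Tfcp2l1 and Dppa5a were below both siNT libraries in all 6. Sox2 was above both in all 6. Pou5f1 was below both with siRpl14 (815 and 881 FPKM) and above both with siRpl11 (1088 and 1245 FPKM). It had 1086 and 948 FPKM with siRpl14+siRpl11, and 945 and 950 FPKM with siNT. The part of these shifts in the members' values was not tested. In bulk RNA, fewer cells of a type and less RNA per cell cannot be told apart, and FPKM gives a gene's share of the RNA, not an amount per cell.

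**Figure D1:**
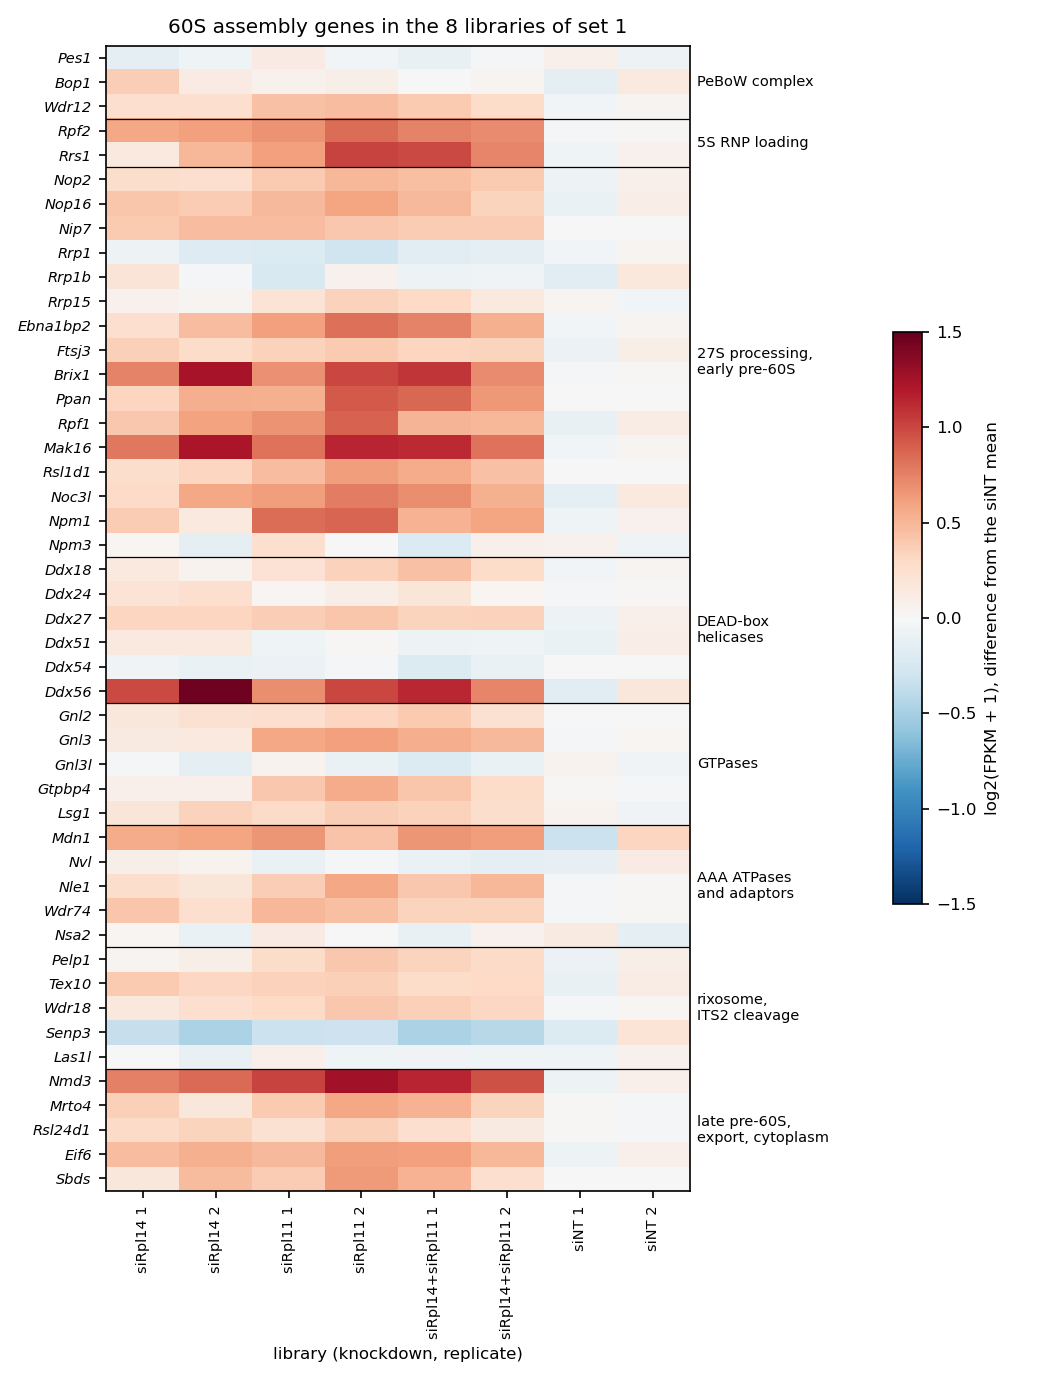
Each row is 1 of the 47 genes, grouped by role, and each column 1 of the 8 libraries of set 1. The colour is the difference of log2(FPKM + 1) from the mean of the 2 siNT libraries, red above and blue below. Nmd3, Mak16, Brix1 and Ddx56 are red in all 6 knockdown libraries, and Senp3 is blue in all 6.

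These counts rest on few libraries. With siRpl14, 2 of the 47 were called higher and 1, Senp3, lower without siNT replicate 1, where 4.38% of all genes were called higher, so the members' share (4.26%) was that of all genes. Fewer than 14 were also called higher without siRpl14 replicate 2, without siNT replicate 2 and without either siRpl14+siRpl11 library. The median log2 change of the 47 was then 0.25, 0.29 and 0.26, beside 0.02, 0.07 and 0.03 over all genes. With plain empirical Bayes 9 of the 47 (19.1%) were called higher, beside 17.4% of all genes. A term for the replicate number also gave 9 (19.1%), beside 15.5%. With siRpl11, far fewer were called higher without siRpl11 replicate 2 or without siNT replicate 1. The median of the 47 was then 0.37 and 0.36, beside -0.11 and -0.12 over all genes. With siRpl14+siRpl11, most calls of members were lost without siRpl14+siRpl11 replicate 1 or siNT replicate 1, and some without siNT replicate 2. The median of the 47 was then 0.31, 0.32 and 0.39, beside -0.06, -0.08 and -0.04 over all genes. Leaving out most of these libraries lowered the calls over all genes as well as over the members. With siRpl14, members' calls fell without siRpl14 replicate 1 or either siRpl14+siRpl11 library, while the share of all genes called higher changed little. Calls kept under every alternative setting and every left-out library numbered 2 of 14 with siRpl14 (Nmd3 and Rpf2), 10 of 31 with siRpl11 (Ebna1bp2, Gnl3, Mak16, Nip7, Nmd3, Npm1, Rpf1, Rpf2, Rsl1d1 and Wdr74) and 3 of 31 with siRpl14+siRpl11 (Gnl3, Nmd3 and Rpf2). Each other call of a member in these 3 comparisons was lost under at least 1 alternative or left-out library. Rescaling each library by the median ratio of its genes moved the median of all genes with siRpl11 from -0.11 to 0.04. It gave 34 of 47 members (72.3%) higher with siRpl11 and 34 with siRpl14+siRpl11. The share of all genes called higher also grew, from 16% to 25% with siRpl11 and from 16.6% to 22.9% with siRpl14+siRpl11. Under that rescaling 55.7% of all calls were higher with siRpl11, against 36.0% without it, and 54.0% against 39.8% with siRpl14+siRpl11. The member medians stayed above 0, at 0.24 with siRpl14, 0.60 with siRpl11 and 0.45 with siRpl14+siRpl11.

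Nmd3 and Rpf2 were the members whose rise in set 1 was called with each ribosomal siRNA under every alternative. Nmd3 is the adaptor that joins the finished pre-60S particle to Xpo1 for export. It had 61.4 and 65.8 FPKM with siRpl14, 73.8 and 88.0 FPKM with siRpl11, 81.0 and 70.6 FPKM with siRpl14+siRpl11, and 34.1 and 38.0 FPKM with siNT. No knockdown library came near the siNT libraries, and both siRpl11 libraries lay above both siRpl14 libraries. Its log2 change was 0.80 ± 0.12 with siRpl14 (SE, n = 2 against 2; limma, adjusted p = 0.00503), 1.14 ± 0.12 with siRpl11 (adjusted p = 0.00226) and 1.05 ± 0.12 with siRpl14+siRpl11 (adjusted p = 0.00266). Rpf2, which in yeast works with Rrs1 to bring the 5S RNP onto the particle, had 38.8 and 40.0 FPKM with siRpl14, 41.5 and 47.0 FPKM with siRpl11, 43.6 and 42.6 FPKM with siRpl14+siRpl11, and 25.5 and 26.0 FPKM with siNT. The 6 knockdown libraries again stood clear of both siNT libraries, which differed by less than 1 FPKM. The changes were 0.60 ± 0.10 with siRpl14 (adjusted p = 0.00628), 0.76 ± 0.10 with siRpl11 (adjusted p = 0.00275) and 0.72 ± 0.10 with siRpl14+siRpl11 (adjusted p = 0.00331).

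Nmd3 and Rpf2 kept their calls against siNT in set 1 under every alternative. Brix1 was 1 of 7 members above siNT with siRpl14 in every set. The promoters of Nmd3, Rpf2 and Brix1 are shown. Each covers 300 bases around the annotated start, most of them before it (RefSeq, GRCm38.p6), and capitals mark matches on either strand to CACGTG, the E-box bound by Myc family proteins, or to CCGGAAG, a core of ETS-type sites.
Nmd3, chr3:69721805-69722104, plus strand: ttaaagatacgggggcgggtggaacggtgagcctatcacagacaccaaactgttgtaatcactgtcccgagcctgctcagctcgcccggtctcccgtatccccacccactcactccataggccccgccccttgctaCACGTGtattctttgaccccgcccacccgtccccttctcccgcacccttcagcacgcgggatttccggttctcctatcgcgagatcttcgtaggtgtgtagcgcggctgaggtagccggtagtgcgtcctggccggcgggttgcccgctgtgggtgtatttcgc
Rpf2, chr10:40246930-40247229, minus strand: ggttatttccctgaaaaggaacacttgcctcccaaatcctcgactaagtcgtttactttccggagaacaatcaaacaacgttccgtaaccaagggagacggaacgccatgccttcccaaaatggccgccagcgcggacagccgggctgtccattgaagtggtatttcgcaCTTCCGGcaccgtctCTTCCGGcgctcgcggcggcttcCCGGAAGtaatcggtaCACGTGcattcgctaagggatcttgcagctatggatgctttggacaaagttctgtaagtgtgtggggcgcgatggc
Brix1, chr15:10485888-10486187, minus strand: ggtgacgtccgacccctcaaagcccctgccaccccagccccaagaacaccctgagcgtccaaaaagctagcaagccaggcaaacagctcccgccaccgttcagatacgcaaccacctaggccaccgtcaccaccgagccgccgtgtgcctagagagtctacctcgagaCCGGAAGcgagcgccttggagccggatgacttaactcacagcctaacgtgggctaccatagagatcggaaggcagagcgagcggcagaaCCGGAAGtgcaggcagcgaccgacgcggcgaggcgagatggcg
The Nmd3 window holds 1 CACGTG and no CCGGAAG. The Rpf2 window holds both, 1 CACGTG just downstream of 3 matches to CCGGAAG, and the Brix1 window holds 2 CCGGAAG and no CACGTG. Of the 7 members above siNT with siRpl14 in every set, Ddx56 had neither motif in its window. Ddx27 and Rsl24d1 had 1 CCGGAAG each, and Mdn1 had 1 CACGTG. No promoter entry was found for Mak16 and Rrs1. Promoter entries matched 38 of the 47 genes. CCGGAAG was found for 17 of these 38 genes (44.7%), against 20.8% of the 9517 tested genes of set 1 with an entry and 9.93% of all 27025 genes with an entry. CACGTG was found for 8 of 38 (21.1%), against 12.3% and 8.09%; the 8 were Mdn1, Nle1, Nmd3, Nop2, Pelp1, Pes1, Rpf2 and Tex10. The motifs cannot overlap each other, and a match describes the letters of the window, not a bound site.

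Among factors of early particles and 27S rRNA processing, 6 of 16 rose with siRpl14, and 12 of 16 rose with siRpl11 and with siRpl14+siRpl11. Mak16 and Brix1 had the largest changes of the 16 with siRpl14 and siRpl14+siRpl11, and both are needed in yeast for the earliest pre-60S particles. Mak16 had 126 and 170.4 FPKM with siRpl14, 129 and 161 FPKM with siRpl11, 159 and 128 FPKM with siRpl14+siRpl11, and 70.4 and 74.6 FPKM with siNT. Brix1 had 69.2 and 98.2 FPKM with siRpl14, 66.7 and 82.9 FPKM with siRpl11, 87.1 and 67.7 FPKM with siRpl14+siRpl11, and 40.6 and 41.3 FPKM with siNT. For both genes the deeper knockdown of each pair gave the higher value, and no knockdown library overlapped siNT. The changes of Mak16 were 1.01 ± 0.18 with siRpl14 (limma, adjusted p = 0.00725), 0.98 ± 0.18 with siRpl11 (adjusted p = 0.00549) and 0.97 ± 0.18 with siRpl14+siRpl11 (adjusted p = 0.00658), and those of Brix1 were 0.99 ± 0.19 (adjusted p = 0.00984), 0.85 ± 0.19 (adjusted p = 0.011) and 0.89 ± 0.19 (adjusted p = 0.0104) in the same order. Without siNT replicate 1, the adjusted p of Mak16 with siRpl14 was 0.0623 and that of Brix1 0.0713. Brix1 also missed the threshold with siRpl14 without siRpl14 replicate 2 (0.0598) or siNT replicate 2 (0.055).

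Brix1, Ppan, Rpf1 and Rpf2 are paralogs that share the Brix domain. All 4 rose with siRpl11, by 0.72 to 0.85, and with siRpl14+siRpl11, by 0.51 to 0.89. With siRpl14, Rpf1 rose by 0.51 ± 0.13 (limma, adjusted p = 0.021), and Ppan was at 0.44 ± 0.15 (adjusted p = 0.0584). The rise of Rpf1 with siRpl14 was not called without siRpl14 replicate 2 (adjusted p = 0.128) or siNT replicate 1 (adjusted p = 0.132).

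Npm1, a histone chaperone that fills the outer layer of the nucleolus, was the most abundant member and separated the siRNAs in set 1. It had 1767 and 1499.7 FPKM with siRpl14, 2418 and 2489 FPKM with siRpl11, 1955 and 2041 FPKM with siRpl14+siRpl11, and 1298 and 1420.4 FPKM with siNT. The siRpl11 libraries were the highest, the double knockdown came between, and the siRpl14 libraries were nearest to siNT. Npm1 rose by 0.85 ± 0.12 with siRpl11 (limma, adjusted p = 0.00291) and by 0.56 ± 0.12 with siRpl14+siRpl11 (adjusted p = 0.0098), the second not called without siRpl14+siRpl11 replicate 1 or siNT replicate 1 (adjusted p at most 0.0619). With siRpl14 it was at 0.26 ± 0.12 (adjusted p = 0.12). That order was not seen in set 3, where Npm1 had 2763 FPKM with siRpl11 and 2753 FPKM with siRpl14+siRpl11. It had 2825 and 2953 FPKM with siRpl14 there, and 2744 and 2850 FPKM with siNT. In set 2 it had 1690 FPKM with siRpl14 and 1813 FPKM with siNT. The relative Npm3 was near 0 in set 1, at -0.06 with siRpl14, 0.13 with siRpl11 and -0.06 with siRpl14+siRpl11, none of them called.

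Of the other early factors, Nip7, which in yeast works on 27S rRNA, rose by 0.42 with siRpl14, 0.43 with siRpl11 and 0.38 with siRpl14+siRpl11. Nop16 rose by 0.40, 0.54 and 0.41 in the same order, and the rRNA methyltransferase Ftsj3 by 0.32, 0.37 and 0.33. Ebna1bp2, Noc3l, Rsl1d1 and the rRNA methyltransferase Nop2 rose with siRpl11, by 0.44 to 0.72, and with siRpl14+siRpl11, by 0.42 to 0.64. With siRpl14 these 4 were at 0.26 to 0.43 and were not called. Rrp1, Rrp1b and Rrp15 were called in none of the 3 comparisons, at -0.25 to 0.27. The siRpl14 calls of Nop16 and Ftsj3 were lost without either siRpl14 or either siNT library (highest adjusted p 0.157 and 0.196).

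The 5S RNP loading pair, Rpf2 and Rrs1, rose together with siRpl11 and with siRpl14+siRpl11. Rrs1 had 50.4 and 64.5 FPKM with siRpl14, 69.6 and 92.7 FPKM with siRpl11, 90.9 and 75.7 FPKM with siRpl14+siRpl11, and 43.1 and 47.5 FPKM with siNT. Its first siRpl14 library was within 3 FPKM of the higher siNT library, while the siRpl11 and double knockdown libraries were well above. Rrs1 rose by 0.81 ± 0.18 with siRpl11 (limma, adjusted p = 0.00913) and 0.86 ± 0.18 with siRpl14+siRpl11 (adjusted p = 0.00877), and was at 0.33 ± 0.18 with siRpl14 (adjusted p = 0.18). Both calls were lost without siNT replicate 1 or without the deeper knockdown library (adjusted p at most 0.0679). Of the cargo and its partner, Rpl5 was not called in any of the 3 comparisons (-0.30, 0.01 and -0.03). Mdm2 rose by 2.48 ± 0.28 with siRpl14 (adjusted p = 0.00182), by 1.25 ± 0.28 with siRpl11 (adjusted p = 0.0102) and by 1.28 ± 0.28 with siRpl14+siRpl11 (adjusted p = 0.0107), so its order among the siRNAs was unlike that of Rrs1 and Npm1. The Mdm2 calls with siRpl11 and siRpl14+siRpl11 were lost without siNT replicate 2 or the deeper knockdown library (adjusted p at most 0.0737).

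The PeBoW complex of Pes1, Bop1 and Wdr12, which is needed to process the spacer between 5.8S and 28S rRNA, had 1 called member of 3. Pes1 had 104 and 109.8 FPKM with siRpl14, 125 and 111 FPKM with siRpl11, 106 and 113 FPKM with siRpl14+siRpl11, and 121 and 109 FPKM with siNT, with every group overlapping siNT. Its changes were -0.10, 0.04 and -0.06 and those of Bop1 0.25, 0.07 and 0.02, none called. Wdr12, the partner that docks on Bop1, rose by 0.45 ± 0.09 with siRpl11 (limma, adjusted p = 0.00827) and by 0.33 ± 0.09 with siRpl14+siRpl11 (adjusted p = 0.0245), and was at 0.25 ± 0.09 with siRpl14 (adjusted p = 0.0728). Neither call of Wdr12 stood without siNT replicate 1 or without the deeper knockdown library, and the second did not stand without siNT replicate 2 (adjusted p 0.0611 with siRpl11 and 0.173 with siRpl14+siRpl11 at most).

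Of the 6 DEAD-box helicases, 2 rose with siRpl14 and with siRpl11, and 3 with siRpl14+siRpl11. Ddx56, whose yeast counterpart acts on early pre-60S particles, had 34.2 and 47.8 FPKM with siRpl14, 27.9 and 34.4 FPKM with siRpl11, 37.8 and 28.3 FPKM with siRpl14+siRpl11, and 14.8 and 18.9 FPKM with siNT. Its siRpl14 change was the highest of the 47, with 1.23 ± 0.21 (limma, adjusted p = 0.00681), beside 0.85 ± 0.21 with siRpl11 (adjusted p = 0.0148) and 0.93 ± 0.21 with siRpl14+siRpl11 (adjusted p = 0.0123). Without siNT replicate 1 none of these was called, with adjusted p of 0.0626, 0.105 and 0.0889 at most, and the siRpl11 and double knockdown calls were also lost without the deeper library. Ddx27 rose by 0.32, 0.39 and 0.34 in the same order of siRNAs, and Ddx18 rose by 0.36 with siRpl14+siRpl11. Ddx24, Ddx51 and Ddx54 were not called, at -0.15 to 0.23.

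No GTPase was called with siRpl14, while 4 of 5 rose with siRpl11 and with siRpl14+siRpl11. Gnl3 (nucleostemin), a nucleolar GTPase abundant in stem cells, had 126 and 127 FPKM with siRpl14, 172 and 175 FPKM with siRpl11, 168 and 161 FPKM with siRpl14+siRpl11, and 112 and 117 FPKM with siNT. The 4 libraries with siRpl11 stood apart from the 4 without it. Gnl3 rose by 0.60 ± 0.09 with siRpl11 (limma, adjusted p = 0.00321) and 0.52 ± 0.09 with siRpl14+siRpl11 (adjusted p = 0.00521), both kept under every alternative, and was at 0.14 ± 0.09 with siRpl14 (adjusted p = 0.228). Gtpbp4, which binds pre-60S particles from the nucleolus to the cytoplasm, rose by 0.48 and 0.35, Gnl2 by 0.28 and 0.31, and Lsg1, which releases Nmd3 in the cytoplasm, by 0.33 and 0.30. The paralog Gnl3l was not called, at -0.09 with siRpl14, -0.02 with siRpl11 and -0.15 with siRpl14+siRpl11. The siRpl11 calls of Gnl2 and Lsg1 were lost without either siRpl11 or either siNT library, and the Gtpbp4 call without siRpl11 replicate 2 (highest adjusted p 0.221, 0.174 and 0.066).

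The AAA ATPase Mdn1, a very large remodelling enzyme of the nucleoplasmic particle, had 45.6 and 46.9 FPKM with siRpl14, 49.0 and 41.5 FPKM with siRpl11, 49.0 and 47.9 FPKM with siRpl14+siRpl11, and 24.4 and 38.6 FPKM with siNT. The siNT libraries differed from each other more than any knockdown pair, and of the 3 changes (0.58, 0.54 and 0.64) the last was called (limma, adjusted p = 0.0304). Its adaptor Nle1 rose by 0.47 with siRpl11 and 0.45 with siRpl14+siRpl11, and Wdr74, a client of the AAA ATPase Nvl, rose by 0.33, 0.47 and 0.33 with siRpl14, siRpl11 and the double knockdown. Nvl and Nsa2 were not called, at -0.13 to 0.07. The siRpl14 call of Wdr74 was lost without any 1 of the 8 libraries and with quantile normalization, plain empirical Bayes and the replicate block (adjusted p at most 0.135), while its siRpl11 call was kept throughout. Of the double knockdown calls, those of Mdn1, Nle1 and Wdr74 were lost without either double knockdown library or siNT replicate 1, and those of Nle1 and Wdr74 also without siNT replicate 2 (highest adjusted p 0.134, 0.0805 and 0.125).

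Pelp1, Tex10, Wdr18, Senp3 and Las1l form the complexes that cut the spacer and help its removal. Pelp1 and Wdr18 rose with siRpl11 (0.34 and 0.35) and with siRpl14+siRpl11 (0.31 and 0.33), and Tex10 with siRpl14 (0.35) and siRpl11 (0.35). Their siRpl11 calls were each lost without siRpl11 replicate 2 or siNT replicate 1 (adjusted p at most 0.190 for Pelp1, 0.149 for Wdr18 and 0.145 for Tex10), and the siRpl14 call of Tex10 was lost under 7 of the 8 left-out libraries. Las1l, the nuclease, was not called, at -0.06 to 0.01. Senp3, the SUMO protease of this complex, had 116 and 106 FPKM with siRpl14, 119 and 119 FPKM with siRpl11, 106 and 111 FPKM with siRpl14+siRpl11, and 128 and 172 FPKM with siNT. All 6 knockdown libraries were below both siNT libraries, which were far apart. Its change was -0.45 ± 0.14 with siRpl14+siRpl11 (limma, adjusted p = 0.034), -0.41 ± 0.14 with siRpl14 (adjusted p = 0.0553) and -0.32 ± 0.14 with siRpl11 (adjusted p = 0.0957). The Senp3 call was lost without either double knockdown library or siNT replicate 2, and after median-ratio rescaling (highest adjusted p 0.157).

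All 5 factors of late particles, export and cytoplasmic maturation rose with siRpl11, and 3 of 5 rose with siRpl14 and with siRpl14+siRpl11. Eif6, which keeps unfinished 60S subunits from joining 40S, had 125 and 132 FPKM with siRpl14, 128 and 140.4 FPKM with siRpl11, 139 and 128 FPKM with siRpl14+siRpl11, and 85.6 and 95.9 FPKM with siNT. It rose by 0.50 ± 0.10 with siRpl14 (limma, adjusted p = 0.0123), 0.56 ± 0.10 with siRpl11 (adjusted p = 0.00614) and 0.55 ± 0.10 with siRpl14+siRpl11 (adjusted p = 0.00705). Each of the 3 calls was lost without the deeper knockdown library, and those with siRpl14 and siRpl14+siRpl11 also without siNT replicate 1 (adjusted p at most 0.0844). Sbds, which together with the GTPase Efl1 takes Eif6 off the subunit, rose by 0.51 ± 0.15 with siRpl11 (adjusted p = 0.0258, lost without siRpl11 replicate 2 or either siNT library), and was at 0.32 ± 0.15 with siRpl14 (adjusted p = 0.125) and 0.39 ± 0.15 with siRpl14+siRpl11 (adjusted p = 0.0659). Rsl24d1 rose by 0.31 with siRpl14 and 0.29 with siRpl11, and Mrto4 by 0.49 with siRpl11 and 0.43 with siRpl14+siRpl11.

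Other factors of the pathway were counted in the same way. Of 35 further 60S factors, 32 were in the tables. Of these, 12 rose with siRpl14, 18 with siRpl11 and 16 with siRpl14+siRpl11. Of all genes tested, 18.1%, 16% and 16.6% were called higher in the same order. Another 2 of the 32 fell, both with the double knockdown, where 25% of all genes were called lower. The median changes of the 32 were 0.28, 0.35 and 0.31, beside 0.03, -0.11 and -0.07 over all genes. Xpo1, the export receptor that Nmd3 recruits, had 49.4 and 63.1 FPKM with siRpl14, 55.1 and 70.6 FPKM with siRpl11, 71.6 and 65.6 FPKM with siRpl14+siRpl11, and 24.4 and 31.4 FPKM with siNT. Like Nmd3, it was higher in each of the 6 knockdown libraries than in both siNT libraries, with changes of 0.99 ± 0.18 (limma, adjusted p = 0.00787), 1.14 ± 0.18 (adjusted p = 0.00373) and 1.28 ± 0.18 (adjusted p = 0.00331). The first of these was lost without siRpl14 replicate 2 or siNT replicate 1 (adjusted p at most 0.0658). Efl1, the partner of Sbds, was at -0.17 with siRpl14 and -0.35 with siRpl11, and fell by 0.38 with siRpl14+siRpl11 (adjusted p = 0.0472), and leaving out any 1 of the 8 libraries ended that call (adjusted p at most 0.222).

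The direct comparison of siRpl14 with siRpl11 called 3 of the 47, all lower with siRpl14, where 12% of all genes were called higher and 1.45% lower. They were Gnl3 (-0.45 ± 0.09; limma, adjusted p = 0.0145), Npm1 (-0.59 ± 0.12; adjusted p = 0.0164) and Gtpbp4 (-0.40 ± 0.10; adjusted p = 0.0328). The median of the 47 was -0.14, beside 0.12 over all genes. Median-ratio rescaling called 12, all lower with siRpl14, and moved the share of all calls that were higher from 89.2% to 54.6%. None of the 47 was called without siRpl14 replicate 2 or without either siRpl11 library, where the adjusted p of Gnl3 was at most 0.109.

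Adding siRpl11 to siRpl14 raised 1 of the 47, Gnl3, by 0.37 ± 0.09 over siRpl14 (limma, adjusted p = 0.0425), where 0.627% of all genes were called higher and 6.61% lower. That call was lost without any 1 of the 8 libraries (adjusted p at most 0.277). Adding siRpl14 to siRpl11 called none of the 47 by limma, where 0% of all genes were called higher and 0% lower. At an unadjusted p under 0.05, 0 of the 47 were higher and 1 lower in that comparison, beside 267 and 120 of all genes. Its median over the 47 was -0.05, with a range of -0.30 to 0.11.

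The interaction term is the change with both siRNAs less the sum of the single changes. It was below 0 for 45 of the 47, where 49.6% of all genes were above 0. Its median was -0.30 beside -0.01 over all genes. The terms of all 47 draw on the same 2 siNT libraries. The interaction was called for 2, both negative, where 1.83% of all genes were called positive and 2.65% negative. These were Nmd3 (-0.89 ± 0.18; limma, adjusted p = 0.0379) and Rpf2 (-0.63 ± 0.14; adjusted p = 0.0483). Neither was called between the double knockdown and siRpl11 alone. The interaction calls of Nmd3 and Rpf2 were kept without siRpl14 replicate 1 and lost without any other 1 of the 8 libraries. Calls over all genes also rose without siRpl14 replicate 1 and fell without each other library. The median of the 47 then ran from -0.36 to -0.23, beside -0.04 to 0.02 over all genes.

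The libraries of a knockdown pair were also set against each other by the depth of knockdown. The deeper library was the higher for 24 of the 47 genes with siRpl14, beside 54.8% of all genes, for 38 with siRpl11, beside 49.1%, and for 30 with siRpl14+siRpl11, beside 47.3%. With no knockdown, siNT replicate 2 was above replicate 1 for 36 of the 47, beside 58.9% of all genes, so such one-sided order was also seen between libraries without a ribosomal siRNA. In set 1, 21 of the 47 genes (44.7%) were higher in the deeper library of all 3 knockdown pairs, against 30.5% of all genes, and 5 (10.6%) were lower in all 3, against 29.2%. The 21 included Mak16, Brix1, Ddx56, Nmd3, Rpf2, Rrs1, Rpf1, Eif6 and Sbds, and the 5 were Rrp1, Npm3, Gnl3l, Wdr74 and Nsa2. The summed level of 6 2C-like markers was 111 and 104 FPKM with siRpl14, 22.9 and 23.3 FPKM with siRpl11, 31.1 and 29.1 FPKM with siRpl14+siRpl11, and 31.1 and 29.6 FPKM with siNT, with none of the 6 at 0. The sum was high with siRpl14 alone, where fewer of the 47 were called than with siRpl11. The part of the knockdown depth and of 2C-like cells in these results was not tested.

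**Figure D2:**
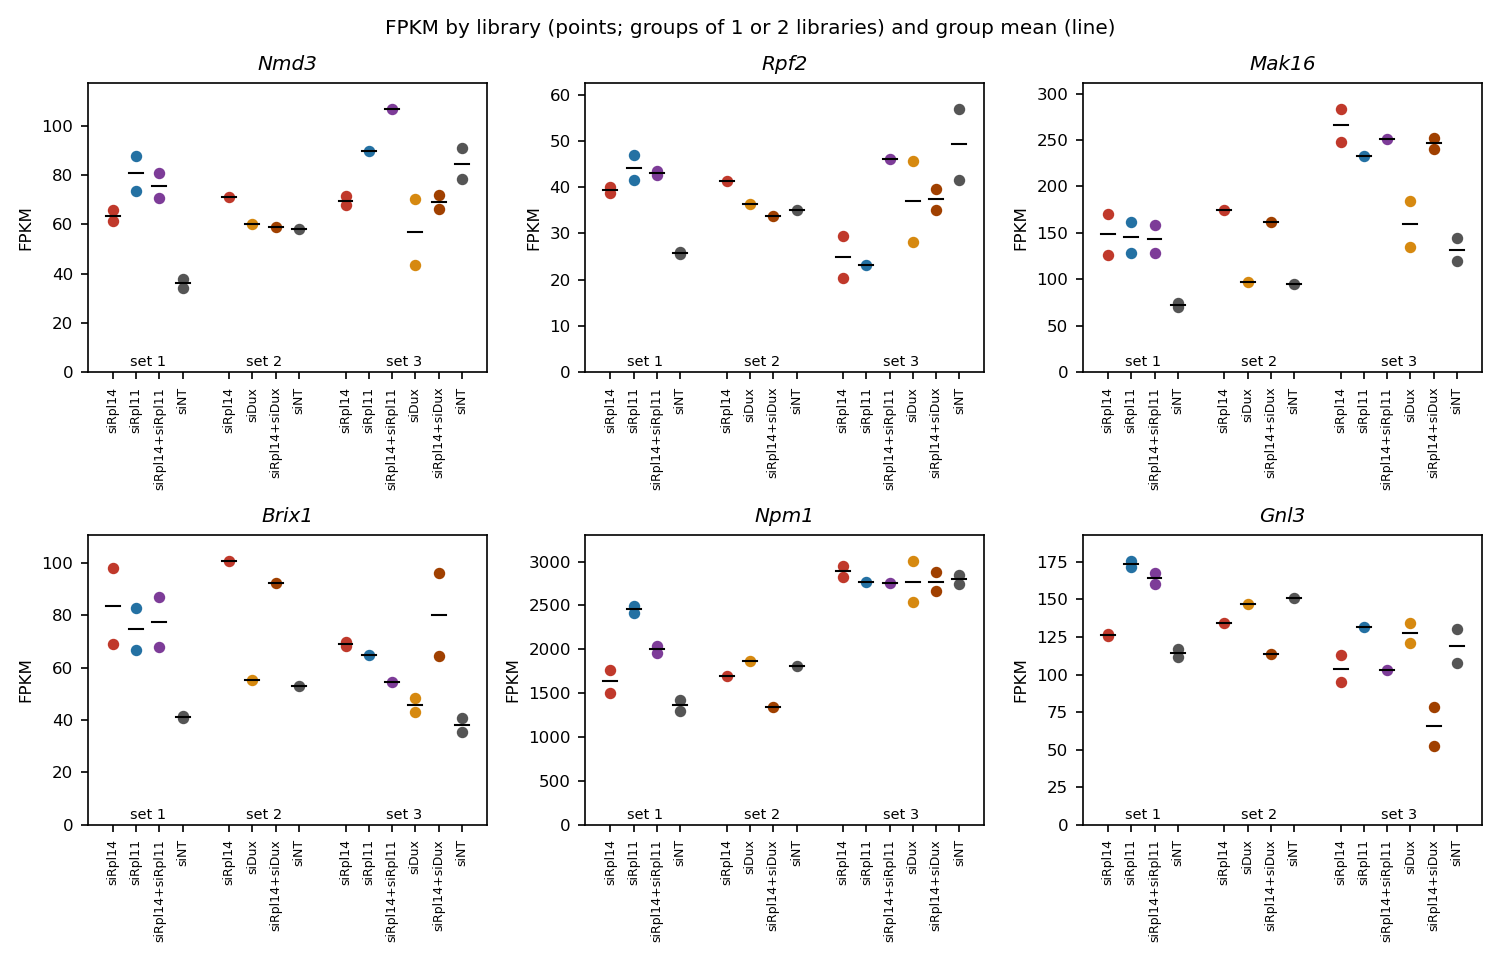
Points are the FPKM of single libraries, grouped by set and knockdown, and lines are group means; set 3 comes from another table and its level cannot be set against the others. Mak16 and Brix1 are above siNT wherever siRpl14 was given in all 3 sets, while Nmd3 and Rpf2 are above siNT in set 1 and below it in set 3 with siRpl14.

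In set 2 the 47 were spread about 0. With 1 library per group there was no test, and a change past 1.2-fold is counted instead. With siRpl14, 7 of the 47 were past 1.2-fold higher and 6 lower, beside 30.7% and 28.9% of all genes, and their median was -0.0038. With siRpl14+siDux, 3 were higher and 14 lower, beside 31.4% and 30.1%, with a median of -0.06. With siDux, 0 of the 47 were past 1.2-fold in either direction, beside 5.04% higher and 3% lower, and their log2 differences ran from -0.14 to 0.14. The summed 2C-like markers were at 173 FPKM with siRpl14, 11.4 FPKM with siRpl14+siDux, 3.01 FPKM with siDux and 64.8 FPKM with siNT. In that order, the stem cell markers summed to 4254, 4074, 6585 and 6442 FPKM and the trophectoderm markers to 41.9, 81.2, 11.2 and 11.2 FPKM. The part of these markers in the values was not tested.

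In this set, Mak16 had 175 FPKM with siRpl14, 162 FPKM with siRpl14+siDux, 97.4 FPKM with siDux and 94.8 FPKM with siNT. Brix1 had 100.6, 92.4, 55.2 and 52.9 FPKM in the same order, and Ddx56 had 52.5, 47.9, 23.2 and 23.3 FPKM. For these 3 genes both libraries with siRpl14 were well above both libraries without it. Over the 47, siRpl14+siDux was above siRpl14 for 6 (12.8%), with a median difference of -0.11, beside 53.5% of all genes and 0.01, and Mak16, Brix1 and Ddx56 were not among the 6. Rpf2 had 41.3 FPKM with siRpl14, 33.7 FPKM with siRpl14+siDux, 36.4 FPKM with siDux and 35.1 FPKM with siNT. Senp3 had 107, 102, 203 and 184 FPKM in that order, so it was again low wherever siRpl14 was given.

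The siNT library of set 2 was itself higher for these genes than those of set 1. It was above both siNT libraries of set 1 for 43 of the 47 genes (91.5%), against 35.1% of all genes, with a median difference of 0.31 beside -0.02. Nmd3 had 58.3 FPKM in the siNT library of set 2, against 34.1 and 38.0 FPKM in set 1, and 71.1 FPKM with siRpl14, against 61.4 and 65.8 FPKM in set 1. The sets thus differed more in the siNT level of Nmd3 than in its siRpl14 level. A fit of sets 1 and 2 together, with a term for the set and 3 libraries against 3, called 16 of the 47 higher and 1, Senp3, lower with siRpl14, where 25.9% of all genes were called higher and 21.8% lower, and the median was 0.17. The difference of the siRpl14 change between set 1 and set 2, a test added after the data were seen, was called for none of the 47 by limma, where 0% of all genes were called larger and 0% smaller in set 1. The difference was above 0, a larger change in set 1, for all of the 47 but Pes1, Ddx54 and Lsg1 (-0.03, -0.07 and -0.01). The share of all genes above 0 was not counted. Its median was 0.22 for the 47 and 0.01 for all genes, and with 1 library per group in set 2 the fit takes their spread from set 1.

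**Figure D3:**
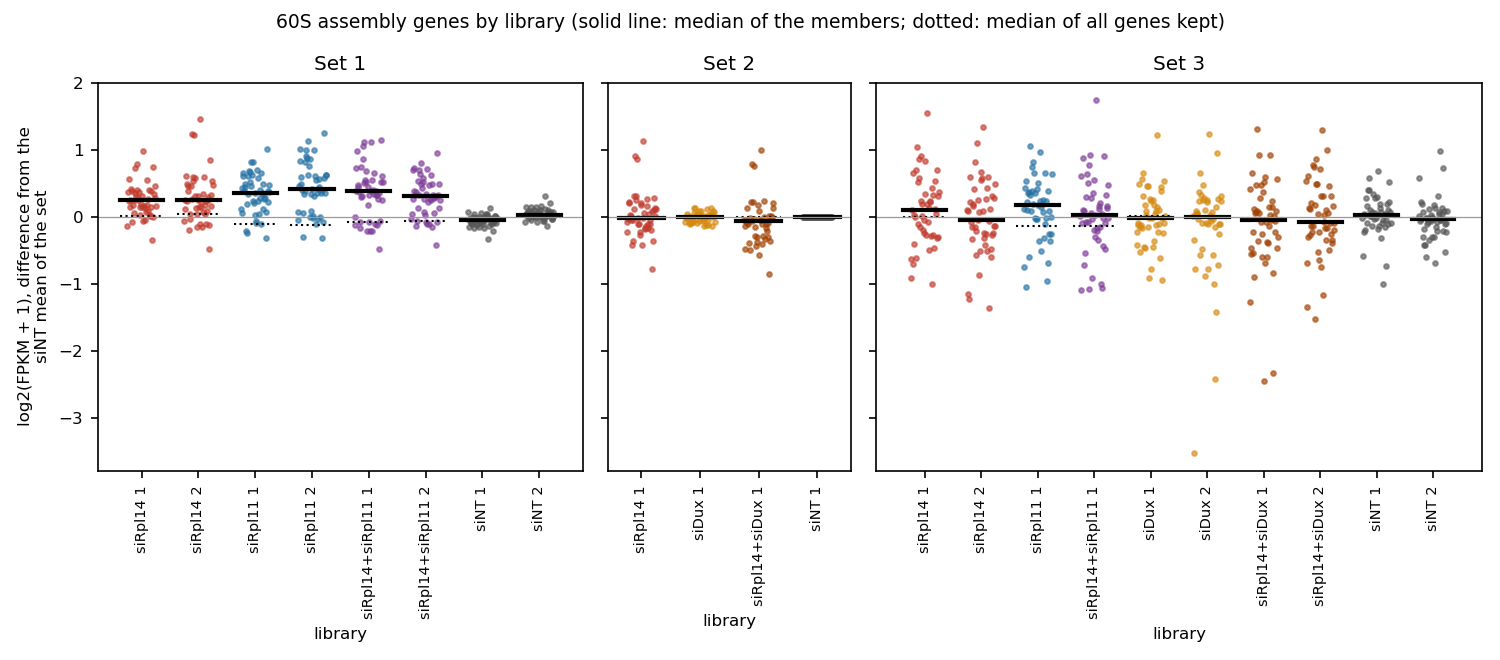
Each point is 1 of the 47 genes in 1 library, as the difference of log2(FPKM + 1) from the siNT mean of its own set; solid lines are medians of the 47 and dotted lines medians of all genes. The median of the 47 lies 0.25 to 0.42 above siNT in the 6 knockdown libraries of set 1, and between -0.07 and 0.19 in the knockdown libraries of sets 2 and 3.

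In set 3, none of the 47 was called by limma in any of the 4 comparisons. The summed 2C-like markers were at 27.8 and 31.6 FPKM with siRpl14, 0 and 0 FPKM with siRpl14+siDux, 0 and 2.03 FPKM with siDux, and 11.7 and 12.3 FPKM with siNT there. With siRpl14, 0.531% of all 13189 genes were called higher and 0.129% lower, and the median of the 47 was 0.01. At an unadjusted p under 0.05, 3 of the 47 (Mak16, Brix1 and Rrs1) were higher and 1 (Rpf2) lower, beside 6.27% and 6.1% of all genes, so the count of members was near or under the background. With siRpl14+siDux, 0.713% of all genes were called higher and 0.311% lower, and 4 of the 47 were higher (Mak16, Brix1, Rrs1 and Ddx27) and 2 lower (Gnl3 and Wdr12) at an unadjusted p under 0.05, beside 6.92% and 7.9% of all genes. With siDux, 0.00758% and 0% of all genes were called, and 0 of the 47 were higher and 3 lower (Npm3, Tex10 and Nmd3) at an unadjusted p under 0.05, beside 2.57% and 2.43% of all genes. Adding siDux to siRpl14 called 0.00758% of all genes in each direction, and 0 of the 47 were higher and 3 lower (Wdr12, Ddx51 and Gnl3) at an unadjusted p under 0.05, beside 3.09% and 3.69% of all genes.

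The values of Mak16 in set 3 were 248 and 284 FPKM with siRpl14, 253 and 241 FPKM with siRpl14+siDux, 135 and 184 FPKM with siDux, and 120.0 and 144 FPKM with siNT. Those of Brix1 were 69.9 and 68.1 FPKM with siRpl14, 96.2 and 64.2 FPKM with siRpl14+siDux, 43.1 and 48.2 FPKM with siDux, and 40.8 and 35.3 FPKM with siNT. For both genes every library with siRpl14 was above every siDux and siNT library. Tti2, which overlaps Mak16 on the other strand, had 687 and 734 FPKM with siRpl14, 619 and 704 FPKM with siRpl14+siDux, 374 and 474 FPKM with siDux, and 354 and 395 FPKM with siNT in this set, and its siRpl14 difference was 0.92 ± 0.16 (limma, adjusted p = 0.0599). It was thus more abundant than Mak16 and moved with it, and the values of Mak16 and Tti2 cannot be told apart in set 3. The differences were 1.01 ± 0.20 for Mak16 (limma, adjusted p = 0.0908) and 0.85 ± 0.25 for Brix1 (adjusted p = 0.225) with siRpl14, and 0.90 ± 0.20 (adjusted p = 0.0982) and 1.03 ± 0.25 (adjusted p = 0.109) with siRpl14+siDux. The single siRpl11 and siRpl14+siRpl11 libraries had 233 and 251 FPKM of Mak16, and 64.7 and 54.6 FPKM of Brix1. Rpf2 had 29.5 and 20.4 FPKM with siRpl14, against 41.6 and 57.0 FPKM with siNT, so both siRpl14 libraries were the lower here, unlike in set 1 (-0.96 ± 0.32; adjusted p = 0.29).

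The lower resolution of set 3 touches several members. Bop1, Nle1, Ddx51, Ddx56 and Wdr18 were each listed at 0 in at least 1 library of that set. Ddx56 had 3.74 and 3.12 FPKM with siRpl14 and 1.60 and 0 FPKM with siNT there, so no fold is given. In the single siRpl11 library, 17 of the 47 were past 1.2-fold higher and 9 lower than the siNT mean, beside 28.2% and 45% of all genes, with a median of 0.19 beside -0.14. In the single siRpl14+siRpl11 library, 14 were higher and 11 lower, beside 29.2% and 44.7%, with a median of 0.03 beside -0.13.

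Across the 3 sets, every siRpl14 library was above every siNT library of its own set for 7 of the 47 genes, against 12% of the 10980 genes tested in all 3. They were Brix1, Ddx27, Ddx56, Mak16, Mdn1, Rrs1 and Rsl24d1. None of the 47 was below siNT in that way, against 11.4% of all genes. The share of 7 in 47 is near that of all genes. Among the 7, Brix1, which overlaps no other annotated gene, had log2 differences of 0.99, 0.92 and 0.85 in sets 1, 2 and 3. Mak16 had 1.01, 0.87 and 1.01, the last beside the like shift of Tti2, while Rsl24d1 had 0.02 and Mdn1 0.17 in set 2.

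**Figure D4:**
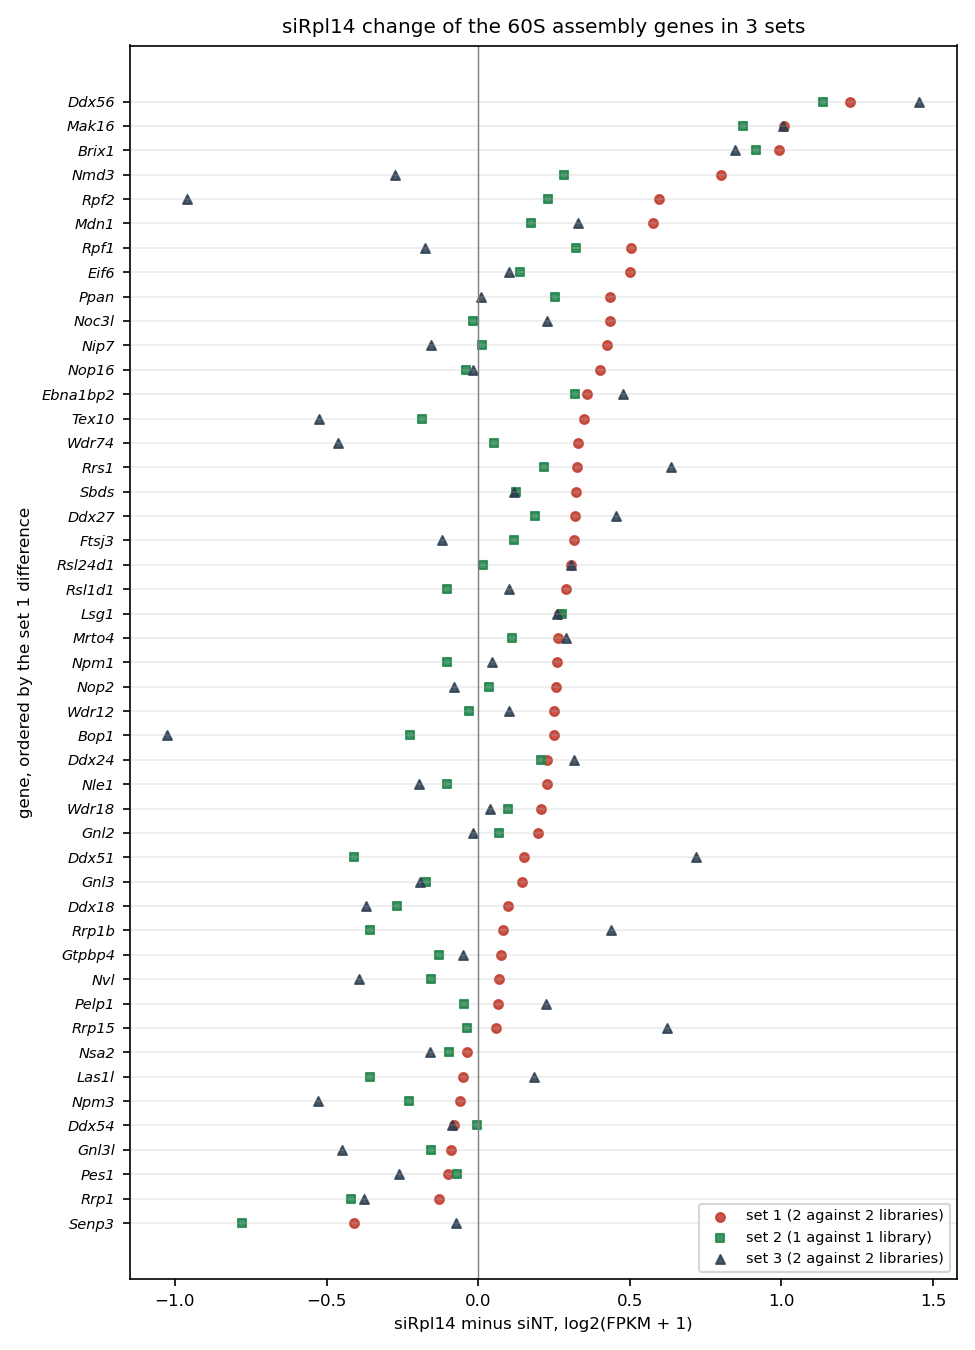
Each row is 1 of the 47 genes, ordered by the set 1 value, and the horizontal axis is the difference siRpl14 minus siNT in log2(FPKM + 1); circles are set 1, squares set 2 (1 library against 1) and triangles set 3. Mak16 and Brix1 lie between 0.85 and 1.01 in all 3 sets, and the medians of the 47 are 0.26, -0.0038 and 0.01 in sets 1, 2 and 3.

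Some members cannot be measured cleanly by such tables. In the GENCODE annotation, Mak16 overlaps Tti2 on the other strand, Gnl3 overlaps Pbrm1, and Bop1, Wdr12, Rrp1b, Ddx54, Gnl2, Nle1, Nsa2 and Tex10 each overlap another gene of the tables on the other strand. The kit keeps the strand, but whether counting used it is not given in the sources used here, so reads of such pairs cannot be told apart. In set 1, Tti2 averaged at most 10.9 FPKM in a knockdown group, against 9.09 FPKM with siNT, and Pbrm1 at most 17.0 FPKM, against 15.2 FPKM, none of the changes called. In set 3, Tti2 averaged 710.3 FPKM with siRpl14, against 374 FPKM with siNT, and Invs, which overlaps Tex10, 73.3 FPKM, against 43.8 FPKM. In set 1, Invs averaged 1.81 FPKM with siRpl14, against 0.747 FPKM with siNT, so these partners were far higher in the table of set 3. Gtpbp4, Mrto4, Npm3 and Nsa2 have annotated pseudogenes by name, so their values are uncertain to that extent.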

How the data were processed

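FPKM tables were deposited by the authors. Reads were aligned with STAR and FPKM made with Cuffnorm on mm9, per the submitters' processing notes. The sources used here do not name tool versions, annotation, strand setting or normalization. No counts were used, so read depth, and the precision it gives, is unknown.

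The test scale was log2(FPKM + 1). A gene entered a fit if 2 or more of its libraries had at least 1 FPKM, and was tested with limma 3.58.1 (trended, robust empirical Bayes, R 4.3.3; statmod 1.5.0), with Benjamini-Hochberg adjustment over all genes tested. Each set was fitted alone, and the single libraries of set 3 stayed out, leaving 8. The 2 tables were never compared in level. Single libraries were described past 1.2-fold. Because the origin of replicates is not labelled, p-values speak of the spread among these libraries, possibly technical, and no more. The fit was also run on simulated data with independent noise and constant changes in some genes. Those data lacked the uneven knockdown within pairs, so they cannot show how it affects the calls.

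The genes and lists were chosen with earlier results of these data known. Genes were named by role, by the extremes of each called comparison, and by calls between siRNAs; Xpo1, Efl1, Tti2 and Pbrm1 were added as partners or overlapping genes. Alternatives covered the pseudocount (0.1), the filter (none, or a mean of 5 FPKM), median-ratio and quantile scaling, plain empirical Bayes, the replicate block, all 10 libraries of set 3, sets 1 and 2 together, and each library left out. Python 3.11.15, pandas 2.3.3 and matplotlib 3.10.9 were used for promoters and figures.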

Additional observations from a re-analysis of the deposited data

Results flagged for a closer look

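In set 1, the siRpl14 change of Nmd3 was lower by 0.89 on the log2 scale in the presence of siRpl11 than without it (interaction -0.89 ± 0.18; limma, adjusted p = 0.0379), and that of Rpf2 was lower by 0.63 (interaction -0.63 ± 0.14; adjusted p = 0.0483). Each call was lost when any 1 of 7 of the 8 libraries was left out.

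Of the 14 members called higher with siRpl14 in set 1, 5 had both siRpl14 libraries below both siNT libraries in set 3. Their set 3 differences were -0.96 for Rpf2, -0.53 for Tex10, -0.28 for Nmd3, -0.18 for Rpf1 and -0.12 for Ftsj3. Over all genes, 22.4% had both siRpl14 libraries below both siNT libraries in set 3, beside 21.3% of the 47. The same share among all genes called higher in set 1 was not counted, so the 5 have no matched background. The sets come from separate tables, and this difference between them was not tested.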

How the results depend on the processing

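No call of a member reversed its direction. Medians near 0 in set 3 changed sign: that with siRpl14, 0.01 with all libraries, ran from -0.04 to 0.11, that with siDux (-0.02) from -0.03 to 0.03, and that of siRpl14+siDux over siRpl14 (-0.05) from -0.07 to 0.03. Without 1 library at a time, the members called ranged over 3 to 10 with siRpl14 (14 with all), 10 to 30 with siRpl11 (31 with all), 4 to 32 with siRpl14+siRpl11 (31 with all), 0 to 3 between siRpl14 and siRpl11, 0 to 0 between siRpl14+siRpl11 and siRpl14 (1 with all), and 0 to 6 for the interaction (2 with all). Leaving a library out leaves its group with 1, which is then assumed to vary like the others. Plain empirical Bayes called 9 members with siRpl14 (19.1%), beside 17.4% of all genes called higher. Median-ratio rescaling gave 12 between siRpl14 and siRpl11, all lower, where 5.71% of all genes were called lower. The Gnl3 call between siRpl14+siRpl11 and siRpl14 was 0 with no filter, the stricter filter, quantile normalization, plain empirical Bayes and the replicate block. The interaction gave 1 with a pseudocount of 0.1, quantile normalization or plain empirical Bayes, and 0 with no filter, the stricter filter or the replicate block. The cause of these shifts was not tested.

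With the replicate block, 9 members (19.1%) were called higher with siRpl14, beside 15.5% of all genes, and 28 (59.6%) with siRpl11, beside 14%. With siRpl14+siRpl11, 27 (57.4%) were called higher, beside 14.8%, and 1 lower. The labels do not say what a replicate number stands for. The correlation of deviations between same-numbered libraries of set 1 was 0.18 to 0.50 among siRpl14, siRpl11 and siNT and -0.50 to -0.24 between siRpl14+siRpl11 and each of these, so the numbers as they stand do not pair all groups, and no other matching was fitted. It was at most 0.04 in set 3. Counts of 0 in set 3 stayed at 0 under every alternative run.

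Scaling moved the split of all calls. Of calls between siRpl14+siRpl11 and siRpl14, 24.9% were higher with median-ratio scaling and 22.9% with quantile scaling, against 8.66% as deposited. Quantile normalization gave 51.5% with siRpl11, 51.9% with siRpl14+siRpl11 and 64.6% between siRpl14 and siRpl11. Unknown depth and 2 libraries a group limit the precision.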
